A study of Danio rerio with 4 samples.

Results

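Notch receptors and the ligands that bind them were examined in whole zebrafish embryos with and without a working npas4l gene. The set holds 10 genes, chosen by name and not by any measured value, out of 24235 genes in the table: the receptors notch1a, notch1b, notch2 and notch3, the Delta ligands dla, dlb and dll4, and the Jagged ligands jag1a, jag1b and jag2b. All 10 had a row. RNA came from Npas4l-KO embryos, which carried 2 copies of the npas4l allele bns297 (2 libraries), and from wild-type AB embryos (WT, 2 libraries), all raised in E3 medium at 28 °C to the 6-somite stage. The strain background of the mutants, and how many embryos or clutches made up a library, are not given in the sources used here, so p-values reflect the spread between these libraries, which may be technical.

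Notch signalling passes between touching cells. A Delta or Jagged protein on 1 cell binds a Notch receptor on its neighbour, the receptor is cut by an ADAM protease and then by gamma-secretase, and its freed intracellular part joins the DNA-binding protein Rbpj and a Mastermind coactivator to switch on HES and HEY repressor genes. In the zebrafish embryo at somite stages the pathway keeps the segmentation clock of the presomitic mesoderm in step and limits how many cells of the neural plate become primary neurons, and in forming vessels it takes part in choosing an arterial fate. npas4l encodes a bHLH-PAS transcription factor needed for most endothelial and blood cells, and the study compared RNA levels with and without it.

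The genotypes differed in the early vessel and blood factors that act downstream of npas4l. tal1, a bHLH factor of blood and endothelial precursors, stood at normalised values of 13 and 8 in Npas4l-KO replicates 1 and 2, against 166 and 163 in WT replicates 1 and 2. lmo2, whose LIM-domain protein works in a complex with Tal1, stood at 61 and 33 in Npas4l-KO libraries, against 210 and 211 in WT libraries. etv2, the ETS family gene at the start of the endothelial programme, stood at 127 and 86 in Npas4l-KO libraries, against 294 and 244 in WT libraries. Each fell in the limma-trend fit over all genes (adjusted p 3.27e-11, 8.49e-09 and 2.50e-05), although etv2 did not pass without WT replicate 1 (log2 fold change -1.22, adjusted p = 0.132). In RNA of whole embryos, fewer cells of a type and less RNA per cell cannot be told apart. A normalised value here is the deposited whole number for a gene in a library, a gene count already scaled between libraries by the authors. It is not divided by gene length, so values are compared between libraries and not between genes.

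The spacing of the deposited values put the reads assigned to genes at between 7208000 and 8380000 in Npas4l-KO libraries and between 7332000 and 9021000 in WT libraries, rounded. Npas4l-KO replicate 2 was unlike the remaining libraries. Only 299 of its genes were at 0, where WT libraries and Npas4l-KO replicate 1 had 2444 to 3000. It alone held the lowest value in 1967 (81.15%) of the 2424 tested genes whose mean value reached 500. In that group of genes the median log2 fold change between genotypes was -0.073, and 79.2% of them had a negative one. The log2 fold change without that library is therefore also given for many genes below, but not for every gene that it alters.

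None of the 10 receptor and ligand genes passed the test. The count was 0 of 10 at an adjusted p under 0.05 (Benjamini-Hochberg over the 16653 genes whose values averaged 10 or more), with 0 higher and 0 lower, where 0.048% of all genes tested passed, 0.006% higher and 0.042% lower. It was also 0 of 10 at an unadjusted p under 0.05, against 3.75% of all genes tested, and 0 of 10 with limma-voom. The log2 fold changes, computed on log2(value + 1) as Npas4l-KO over WT, ran from -0.36 for dll4 to 0.19 for jag1b. Their median was -0.048, against -0.018 over all genes tested. Over tested genes whose mean value reached 50, as that of every member but dll4 did, the median was -0.054. In 9 of the 10 genes the difference between genotypes was smaller than the larger of the 2 differences between replicates, as it was in 81.0% of all genes tested. dll4 was the exception, and it was also the 1 gene whose groups did not overlap, against 29.4% of all genes tested.

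**Figure D1:**
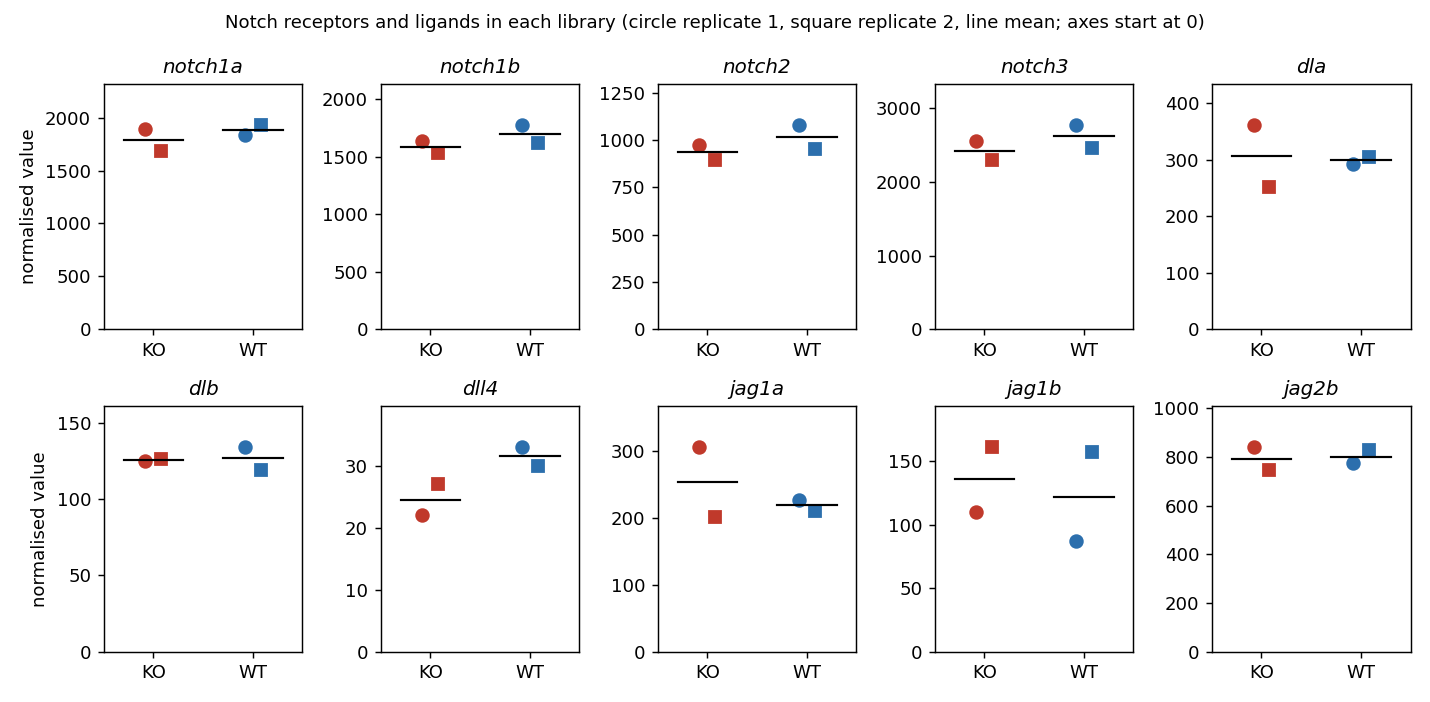
Normalised value (vertical axis, from 0, with its own scale for each gene) of the 10 receptor and ligand genes in Npas4l-KO (KO, left, red) and WT (right, blue) libraries. Circles are replicate 1, squares replicate 2 and lines group means. The groups overlap in every panel except dll4, where 22 and 27 in Npas4l-KO libraries lie below 33 and 30 in WT libraries.

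The intervals bounded the change of the receptors and most ligands more closely than that of dll4. The 95% confidence interval of the receptors' fold change reached from 0.757-fold to 1.14-fold at its widest ends. A loss in whole-embryo RNA as large as that of lmo2 or etv2 lay outside it. The interval does not bound a loss confined to a small part of the embryo's cells. Given the standard errors, a receptor would have needed a change of 1.52-fold to 1.54-fold to pass the test, and jag2b one of 1.55-fold. dla, jag1a, dlb and jag1b would have needed 1.72-fold, 1.79-fold, 2.02-fold and 2.11-fold. dll4 would have needed 4.94-fold, and its interval ran from 0.382-fold to 1.60-fold, which includes a loss of the size seen for etv2. These standard errors rest mostly on a variance trend over genes of similar value (83.6 prior degrees of freedom) and little on each gene's own 4 values. The intervals and the changes needed to pass are those of limma-trend on the deposited values. For notch3 the standard error was 0.14 there, 0.064 with quantile normalization and 0.15 with a replicate block.

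**Figure D2:**
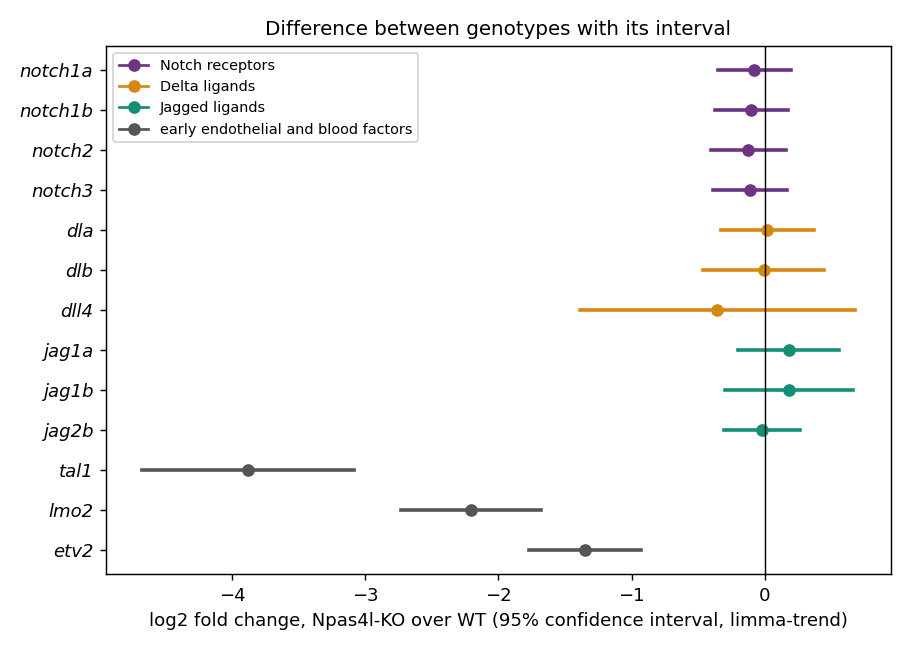
Log2 fold change, Npas4l-KO over WT, with its 95% confidence interval from limma-trend, for the 4 receptors, 6 ligands and the early endothelial and blood factors tal1, lmo2 and etv2. All 10 Notch intervals include 0, the widest being that of dll4 from -1.39 to 0.68, and those of tal1, lmo2 and etv2 lie below 0.

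The receptors had closely similar differences. notch1a (ENSDARG00000103554, chromosome 21, 4599712 to 4684498, minus strand, GRCz10), a receptor expressed widely in the early embryo, had values of 1895 and 1685 in Npas4l-KO replicates 1 and 2, against 1839 and 1935 in WT replicates 1 and 2. The lowest value was that of Npas4l-KO replicate 2, and Npas4l-KO replicate 1 lay between the WT libraries. Its log2 fold change was -0.078 ± 0.14 (SE, n = 2 libraries in each group, here and below), and it was 0.0066 without Npas4l-KO replicate 2.

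notch1b (ENSDARG00000052094, chromosome 5, 64997150 to 65103750, minus strand), the second copy of the Notch1 gene in this species, had values of 1636 and 1529 in Npas4l-KO libraries, against 1778 and 1617 in WT libraries. notch2 (ENSDARG00000043130, chromosome 8, 19516900 to 19587707, plus strand), a receptor with a single copy in the table, had values of 975 and 893 in Npas4l-KO libraries, against 1081 and 954 in WT libraries. notch3 (ENSDARG00000052139, chromosome 3, 53275051 to 53304745, minus strand), known in older vessels for its role in mural cells, had values of 2554 and 2291 in Npas4l-KO libraries, against 2776 and 2458 in WT libraries. In all 3 genes the libraries fell in the same order: WT replicate 1 was highest, then Npas4l-KO replicate 1, then WT replicate 2, then Npas4l-KO replicate 2. That order also held in 12.9% of the tested genes whose mean value reached 500. The groups overlapped in each receptor.

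The log2 fold changes were -0.10 ± 0.14 for notch1b, -0.12 ± 0.14 for notch2 and -0.11 ± 0.14 for notch3. Without Npas4l-KO replicate 2 they were -0.052, -0.059 and -0.032 in the same order, and without WT replicate 1 they were -0.032, -0.032 and -0.023. The difference between the WT libraries alone, replicate 1 over replicate 2, was 0.14 for notch1b, 0.18 for notch2 and 0.18 for notch3 on the same scale, larger than the difference between genotypes in each. Over the 4 receptors the median log2 fold change was -0.11, against -0.073 over all tested genes whose mean value reached 500, and the 4 summed to 7060 and 6398 in Npas4l-KO libraries, against 7474 and 6964 in WT libraries. Upper-quartile scaling raised the median of all genes tested by 0.17, and all 4 receptors turned positive with it, between 0.052 and 0.096. Relative to the median of all genes tested, the receptors' median was -0.088 as deposited and -0.086 with upper-quartile scaling. It was -0.026 with quantile normalization, and over the alternatives it ran from -0.17 with no filter on low values to -0.013 without WT replicate 1.

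**Figure D3:**
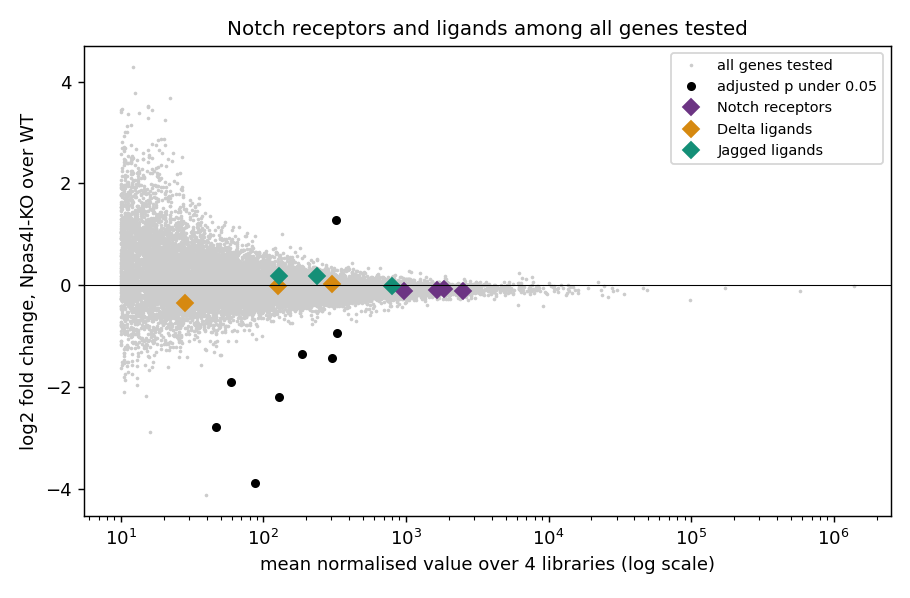
Log2 fold change, Npas4l-KO over WT, against the mean normalised value over 4 libraries (log scale) for the 16653 genes tested (grey), the 8 genes with an adjusted p under 0.05 (black) and the Notch receptors (purple), Delta ligands (orange) and Jagged ligands (green). The 10 Notch genes lie within the band of genes of similar value, between -0.36 and 0.19.

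Among the Delta ligands, dla and dlb, both known for lateral inhibition in the zebrafish neural plate, had means that nearly matched between genotypes. dla (ENSDARG00000010791, chromosome 1, 53353714 to 53366437, plus strand) had values of 362 and 252 in Npas4l-KO libraries, against 292 and 305 in WT libraries. The Npas4l-KO libraries were the highest and the lowest of the 4, with both WT libraries between them. The log2 fold change of dla was 0.017 ± 0.18, and it was 0.28 without Npas4l-KO replicate 2 and -0.24 without Npas4l-KO replicate 1. A gene on the opposite strand, AL929114.1, overlaps dla. Its values were 20 or less in every library, and without a stated strand setting reads of the pair cannot be told apart.

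dlb (ENSDARG00000004232, chromosome 5, 36093706 to 36101607, plus strand) had values of 125 and 126 in Npas4l-KO libraries, against 134 and 119 in WT libraries. Both Npas4l-KO values lay between the WT values. Its log2 fold change was -0.0089 ± 0.23.

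dll4 (ENSDARG00000070425, chromosome 20, 28346074 to 28354934, plus strand), the Delta ligand best known from endothelial cells, where it acts in arterial fate and limits sprouting, had the lowest values of the set. It stood at 22 and 27 in Npas4l-KO libraries, against 33 and 30 in WT libraries, or about 22, 27, 30 and 33 reads in Npas4l-KO replicates 1 and 2 and WT replicates 1 and 2. Both Npas4l-KO libraries lay below both WT libraries, as in 2684 (16.1%) of the 16653 genes tested. Of these 2684 genes, 2151 were among the 10576 whose mean value reached 50. The mean of dll4 was 28, so the 16.1% does not stand for genes of its level. The log2 fold change was -0.36 ± 0.52 with an adjusted p of 1, and it was -0.50 without Npas4l-KO replicate 2. It was negative in the 14 alternative fits that tested it, between -0.53 and -0.19, and passed in none of those that kept every library. These fits reuse the same libraries. Because the groups did not overlap, leaving out a library could not change the sign, so that part of the count is no separate evidence. With limma-voom the groups overlapped.

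Early endothelial and blood markers were read beside dll4. Of 15 tested markers, 4 fell (tal1, lmo2, etv2 and gfi1aa, a repressor of early blood cells), 0 rose and 11 did not pass. The log2 fold change was negative in 11 of the 15 and positive in 4. In 9 both Npas4l-KO libraries lay below both WT libraries (16.1% of all genes tested), and in 0 both lay above (13.3%). These shares change with the level of a gene, and many of the markers had low values. The 16 markers in the table, none of them at 0 in any library, summed to between 2751 and 3071 in Npas4l-KO libraries and between 3457 and 3653 in WT libraries. Most of that sum came from efnb2a and ephb4a, an ephrin and its receptor that many other embryonic tissues also make. Markers that did not pass included kdrl, a VEGF receptor, at 24 and 35 in Npas4l-KO libraries against 20 and 32 in WT libraries, and the junction gene cdh5, at 6 and 8 in Npas4l-KO libraries against 24 and 15 in WT libraries. They also included the VEGF receptor gene flt1, at 13 and 69 in Npas4l-KO libraries against 3 and 14 in WT libraries (unadjusted p = 0.020 in limma-trend, adjusted p of 1), and the receptor gene tie1, at 20 and 52 in Npas4l-KO libraries against 20 and 26 in WT libraries. Npas4l-KO replicate 2 was the highest library in kdrl, flt1 and tie1. sox7, also not called, stood at 24 and 21 in Npas4l-KO libraries against 51 and 59 in WT libraries. egfl7 stood at 15 and 16 in Npas4l-KO libraries against 44 and 42 in WT libraries, and dusp5 at 20 and 29 against 46 and 47. Unadjusted p in limma-trend was 0.0060 for sox7, 0.011 for egfl7 and 0.048 for dusp5, and none of them passed. The part of endothelial cell number in the values of dll4 was not tested.

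The Jagged ligands varied more between replicates than between genotypes. jag1a (ENSDARG00000030289, chromosome 1, 50461185 to 50513861, minus strand), 1 of the pair of zebrafish genes that match mammalian Jag1, had values of 306 and 201 in Npas4l-KO libraries, against 227 and 211 in WT libraries. Npas4l-KO replicate 1 was the highest and Npas4l-KO replicate 2 the lowest of the 4. Its log2 fold change was 0.18 ± 0.19, and it was -0.12 without Npas4l-KO replicate 1 and 0.48 without Npas4l-KO replicate 2.

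jag1b (ENSDARG00000013168, chromosome 13, 35213350 to 35264263, plus strand), the other gene of that pair, had values of 110 and 161 in Npas4l-KO libraries, against 87 and 157 in WT libraries. Replicate 2 was the higher library in each genotype. The difference between the WT libraries, replicate 1 over replicate 2, was -0.84 on the log2 scale, larger than the log2 fold change between genotypes of 0.19 ± 0.24. That fold change was -0.24 without WT replicate 1, -0.087 without Npas4l-KO replicate 2 and 0.61 without WT replicate 2.

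jag2b (ENSDARG00000021389, chromosome 20, 21491519 to 21575956, plus strand), 1 of the pair of genes that match mammalian Jag2, had values of 841 and 745 in Npas4l-KO libraries, against 776 and 827 in WT libraries. The WT values lay between the Npas4l-KO values. Its log2 fold change was -0.017 ± 0.14, and it turned to 0.070 without Npas4l-KO replicate 2.

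**Figure D4:**
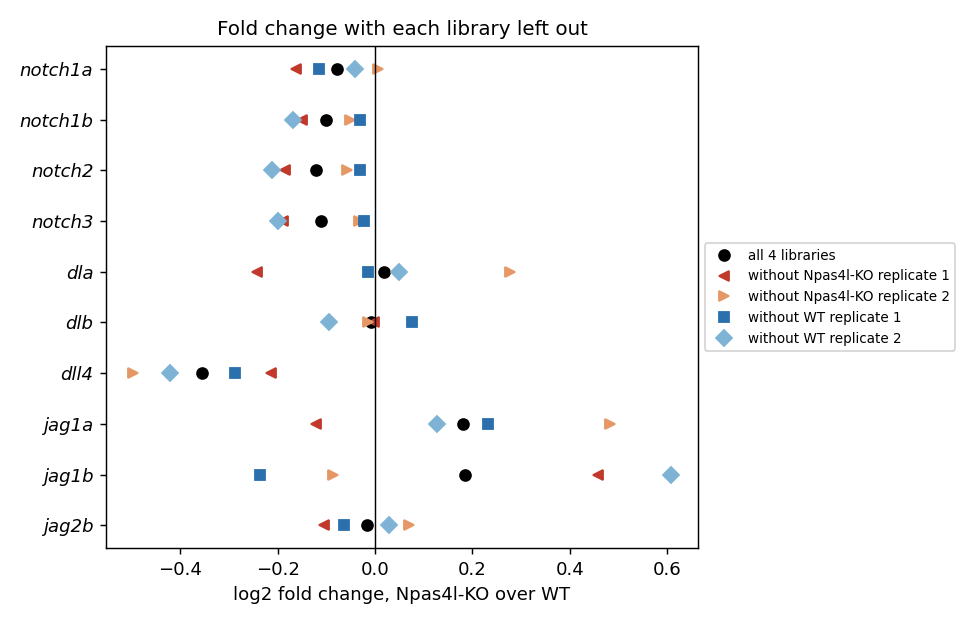
Log2 fold change, Npas4l-KO over WT, of the 10 genes with all 4 libraries (black circle) and with each library left out in turn (coloured symbols). jag1b runs from -0.24 to 0.61, jag1a from -0.12 to 0.48 and dla from -0.24 to 0.28, while notch1b, notch2, notch3 and dll4 stay below 0.

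Summed over the 6 ligands, values were 1766 and 1512 in Npas4l-KO libraries, against 1549 and 1649 in WT libraries. Delta ligands made up 509 and 405 of these in Npas4l-KO libraries, against 459 and 454 in WT libraries. For every 100 units of summed receptor value there were 25.0 and 23.6 units of ligand value in Npas4l-KO libraries, against 20.7 and 23.7 in WT libraries. Npas4l-KO replicate 2 lay between the WT libraries in this ratio, so the groups overlapped. The ratio is taken within a library and does not depend on its scaling, but it is not corrected for gene length.

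jag1b had the largest log2 fold change among the members whose mean value reached 50, and the genes with the most similar profile over the 4 libraries were looked up for it. Among 10575 other genes at that level, those at the smallest Euclidean distance on the centred log2 scale were rps6kc1, a ribosomal S6 kinase family gene (distance 0.067), and tmem246 (0.109). rps6kc1 stood at 85 and 119 in Npas4l-KO libraries, against 63 and 118 in WT libraries, so that replicate 2 was the higher library in each genotype, as in jag1b. With 4 libraries many genes share an order, and with quantile normalization 0 of these genes stayed among the 3 nearest.

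None of the other Notch pathway genes passed the test. Of 73 symbols listed by textbook role, 63 matched 65 rows of the table and 58 of these rows were tested. The count past an adjusted p under 0.05 was 0, against 0.048% of all genes tested, and limma-voom also called 0. At an unadjusted p under 0.05 there were 1 higher and 1 lower, against 3.75% of all genes tested. The median log2 fold change of the 58 was -0.048. It was negative in 36 of them, against 52.7% of all genes tested and 62.3% of those whose mean value reached 50. In 15 of the 58 both Npas4l-KO libraries lay below both WT libraries (16.1% of all genes tested). In 3 both lay above (13.3%). Among the 10576 tested genes whose mean value reached 50, the groups did not overlap with Npas4l-KO lower in 2151 and higher in 1003.

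The Delta ligands outside the set of 10 include dld, which acts with dlc in the segmentation clock and in neurogenesis. dld stood at 754 and 800 in Npas4l-KO libraries, against 895 and 837 in WT libraries. Both Npas4l-KO libraries lay below both WT libraries, and the log2 fold change was -0.16 ± 0.14 with an adjusted p of 1. It turned to 0.017 with upper-quartile scaling. jag2a, the other Jag2 gene, stood at 37 and 62 in Npas4l-KO libraries against 40 and 33 in WT libraries, a log2 fold change of 0.39 ± 0.40 that was 0.025 without Npas4l-KO replicate 2 and 0.75 without Npas4l-KO replicate 1. Over the 3 tested genes of this list the median was -0.13.

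Among genes for ligand endocytosis and receptor glycosylation, lfng, a glycosyltransferase that tunes which ligands a Notch receptor answers, stood at 731 and 606 in Npas4l-KO libraries, against 795 and 868 in WT libraries. Both Npas4l-KO libraries were lower. Its log2 fold change was -0.32 ± 0.15, with an unadjusted p of 0.031 and an adjusted p of 1. Without Npas4l-KO replicate 1 it passed (log2 fold change -0.45, adjusted p = 0.032; the adjusted p over all alternatives ran from 0.032 to 1), in a fit that called 272 genes. Without Npas4l-KO replicate 2 its log2 fold change was -0.18, with an adjusted p of 1. neurl1aa, a ubiquitin ligase gene of the Neuralized family, had values of 7 and 28 in Npas4l-KO libraries against 28 and 30 in WT libraries, so 1 library set it apart. Its log2 fold change was -0.98 ± 0.66 with all libraries, -0.048 without Npas4l-KO replicate 1 and -1.91 without Npas4l-KO replicate 2. The median of the 7 tested genes was -0.087.

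Of the genes that cut the receptor, 0 of 10 passed. adam17a, a protease gene of the ADAM family, stood at 428 and 449 in Npas4l-KO libraries, against 549 and 516 in WT libraries, a log2 fold change of -0.28 ± 0.15. Both Npas4l-KO libraries lay below both WT libraries. In the list 5 of the 10 genes had no overlap between groups, 1 higher (13.3% of all genes tested) and 4 lower (16.1%). The median of the list was -0.065.

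In the nuclear complex 0 of 9 genes passed, with a median log2 fold change of -0.13. rbpjb, 1 of the pair of Rbpj genes, stood at 72 and 93 in Npas4l-KO libraries, against 85 and 125 in WT libraries, a log2 fold change of -0.33 ± 0.27. It was -0.054 without WT replicate 2, -0.61 without WT replicate 1 and -0.51 without Npas4l-KO replicate 2. maml1, a Mastermind coactivator, stood at 446 and 417 in Npas4l-KO libraries, against 509 and 468 in WT libraries, a log2 fold change of -0.18 ± 0.16. Of the negative regulators 0 of 10 passed, with a median of 0.010. itcha, a ubiquitin ligase gene, had low values of 19 and 32 in Npas4l-KO libraries against 10 and 22 in WT libraries. The log2 fold change of itcha was 0.69 ± 0.68. It was 0.33 without Npas4l-KO replicate 2, 0.16 without WT replicate 1 and 1.22 without WT replicate 2. Its paralogue itchb stood at 170 and 156 in Npas4l-KO libraries against 102 and 192 in WT libraries, a log2 fold change of 0.22 ± 0.22 that turned to -0.24 without WT replicate 1.

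The HES and HEY repressor genes are the best known targets of the pathway, although other signals also act on some of them. Of these, 0 of 19 tested rows passed, with a median log2 fold change of -0.053. The log2 fold change was negative in 12 rows and positive in 7. The lowest was that of hey2, -0.80 ± 0.46. Its values were 40 and 17 in Npas4l-KO libraries against 34 and 63 in WT libraries, and the groups overlapped. The lowest value was that of Npas4l-KO replicate 2, and Npas4l-KO replicate 1 lay between the WT libraries. A row named her15.1 (ENSDARG00000054562), a target in neural progenitors, stood at 122 and 98 in Npas4l-KO libraries, against 64 and 84 in WT libraries. Both Npas4l-KO libraries were higher, and its log2 fold change was 0.57 ± 0.27 with an unadjusted p of 0.036 and an adjusted p of 1. The table holds a second row of the same symbol (ENSDARG00000054560), at 88 and 45 in Npas4l-KO libraries against 75 and 47 in WT libraries. The groups overlapped in that row, and its log2 fold change was 0.083 ± 0.33. Copies of this family are near-identical, so reads may be split between them and both values are uncertain. her9, a gene of this family in the neural plate, stood at 494 and 382 in Npas4l-KO libraries against 306 and 400 in WT libraries, with overlapping groups and a log2 fold change of 0.31 ± 0.17 that was 0.13 without Npas4l-KO replicate 1 and 0.12 without WT replicate 1. Over the 23 rows of the list, 6 of 19 tested rows had no overlap between groups, 2 higher (13.3% of all genes tested) and 4 lower (16.1%), a share near that of all genes.

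**Figure D5:**
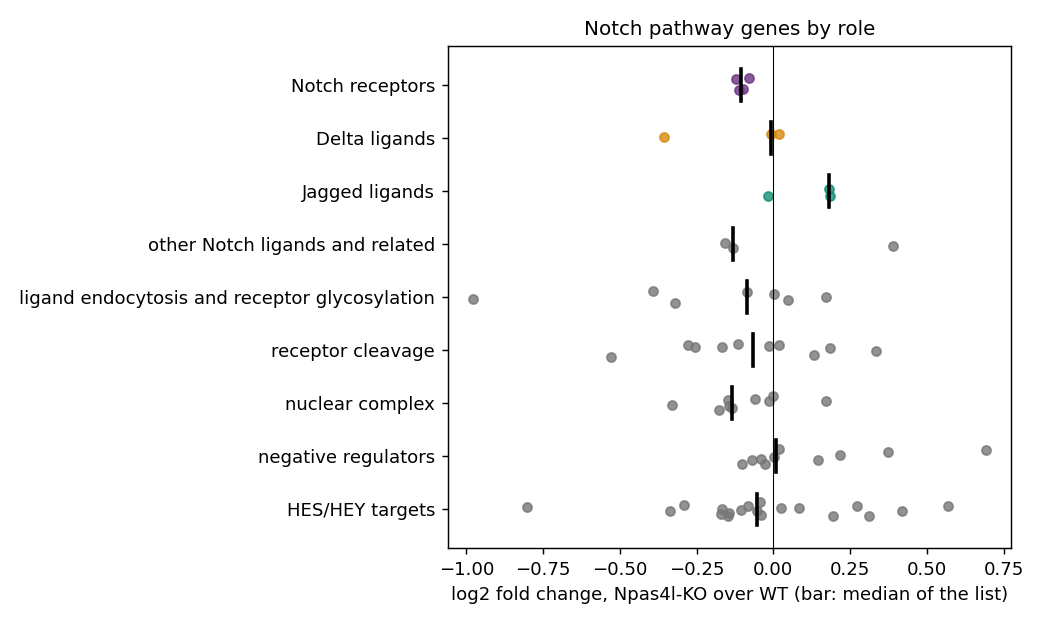
Log2 fold change, Npas4l-KO over WT, of each tested gene by role in the Notch pathway, with a bar at the median of each list. Points scatter on both sides of 0 in every list except the receptors, whose 4 values lie between -0.12 and -0.078. Of the tested genes whose mean value reached 500, as that of each receptor did, 79.2% also had a negative log2 fold change.

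Outside the endothelial and blood list above, markers of the tissues where Notch genes are known to be active gave no call. For the neural plate and primary neurons 0 of 12 tested rows passed, and the list summed to between 4116 and 4762 in Npas4l-KO libraries and between 4482 and 4690 in WT libraries. For the presomitic and somitic mesoderm 0 of 11 passed. The list summed to between 3412 and 3809 in Npas4l-KO libraries and between 3823 and 4143 in WT libraries, without overlap. Of the 11 genes, 7 had a negative log2 fold change and 4 a positive one. In 4 both Npas4l-KO libraries lay below both WT libraries (16.1% of all genes tested), and in 2 both lay above (13.3%). In the notochord and floor plate 0 of 7 passed, with sums between 2056 and 2219 in Npas4l-KO libraries and between 2307 and 2524 in WT libraries. These sums did not overlap either. Both Npas4l-KO libraries lay below both WT libraries in 2 of the 7 genes and above in 0. All 7 had a negative log2 fold change (median -0.17), as had 62.3% of the tested genes whose mean value reached 50. In the pronephros 0 of 5 passed, with sums between 1303 and 1325 in Npas4l-KO libraries and between 1196 and 1347 in WT libraries. There 4 had a positive log2 fold change and 1 a negative one. No marker of these 4 lists was at 0 in any library. The part of these tissues in the receptor and ligand values was not tested.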

How the data were processed

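Per the submitters' processing notes, reads were processed by the authors with STAR 2.4.0a, FastQC, DESeq2 and the Subread counter featureCounts 1.4.5-p1, on the builds danRer10 and GRCz10. Strand and multi-mapping settings are not given in the sources used here. A stranded pico-input kit turned 10 ng of total RNA into each library, read as single ends of 75 bases, per the labels' protocols. The values deposited have the unit score. They are gene counts that were divided by a factor for each library and then rounded, as gaps and doublings among the low values show. 1 read was worth 0.983 and 1.01 in Npas4l-KO replicates 1 and 2 and 1.09 and 0.898 in WT replicates 1 and 2. Exact counts were not recovered.

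Values were tested as log2(value + 1) for genes with a mean of at least 10, by limma-trend (limma 3.58.1, R 4.3.3), group being the single term, and Benjamini-Hochberg adjustment over all genes tested. The code was tested on simulated data. Tables and figures used Python 3.11.15, pandas 2.3.3 and Matplotlib 3.10.9. Alternatives were other pseudocounts, filters, scalings, limma-voom, robust variances, a replicate block and each library left out. Named genes were all members, up to 2 genes with the smallest p from each pathway list, the 3 genes nearest in profile to 1 member, and tal1, lmo2 and etv2; some of these genes are not reported here. kdrl, cdh5, flt1, tie1, gfi1aa, sox7, egfl7 and dusp5, markers of the endothelial list, and other genes of the lists were named after their values were seen. Members and lists were chosen with earlier results of these data known. npas4l itself was not analysed here. Coordinates are those of the deposited table. Symbols were matched in the table or, for the marker tbxta, through the present name of its gene ID.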

Additional observations from a re-analysis of the deposited data

How the results depend on the processing

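Of the 10 receptors and ligands, 0 passed in any of the 15 alternatives, and 1, dll4, kept its direction in the 14 that tested it. The fits that left out a library could not change the sign of dll4, because its groups did not overlap. With upper-quartile scaling the log2 fold changes turned to 0.096 (notch1a), 0.073 (notch1b), 0.052 (notch2), 0.063 (notch3), 0.16 (dlb), 0.16 (jag2b) and 0.017 (dld). There the median of all genes tested was 0.15, against -0.018 as deposited, and the receptors stayed below it. All genes tested include many of lower value than the receptors. As deposited, the receptors' median was -0.11, against -0.073 over tested genes whose mean value reached 500. dlb and jag2b also turned to 0.049 and 0.041 when scaled to totals without mitochondrial genes, 0.015 and 0.070 with quantile normalization, and 0.045 and 0.042 with limma-voom. Leaving out each library in turn gave -0.16 to 0.0066 (notch1a), -0.24 to 0.28 (dla), -0.094 to 0.076 (dlb), -0.12 to 0.48 (jag1a), -0.24 to 0.61 (jag1b), -0.10 to 0.070 (jag2b), -0.24 to 0.67 (itchb), -0.23 to 0.67 (rps6kc1) and -0.17 to 0.57 (tmem246). Members whose groups did not overlap numbered 3 with upper-quartile scaling (33.4% of all genes in that fit), 2 with quantile normalization (31.3%), 0 with limma-voom (31.7%) and 0 with a mean value of at least 50 (29.8%), where dll4 was not tested, and 3 to 9 with a library left out, where 57.3% to 72.0% of all genes did not overlap.

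Over all genes, 8 passed, 15 scaled to totals without mitochondrial genes, and 6 to 272 with a library left out; the highest counts were 272 without Npas4l-KO replicate 1 and 22 without Npas4l-KO replicate 2, and the cause was not tested. Other pathway genes called numbered 0, and 0 to 1 with a library left out. In those fits genes tied in the remaining pair were left out and the lone library was assumed to vary like the other group. The replicate block called 9 genes and 0 members. Over genes tested, same-numbered libraries deviated from their group means with a correlation of 0.0090. With 2 libraries in each group, and Npas4l-KO replicate 2 unlike the rest, that value cannot show whether libraries were paired. Low values limit dll4 most.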

Other observations

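7 listed pathway rows fell below the filter on low values and were not tested. 6 of them had their highest value in Npas4l-KO replicate 2. heyl, a HEY family gene, stood at 0 and 6 in Npas4l-KO libraries against 0 and 2 in WT libraries, and dner, which encodes a Delta/Notch-like transmembrane protein, at 3 and 7 in Npas4l-KO libraries against 0 and 0 in WT libraries. mfng, a fringe glycosyltransferase, stood at 0 and 11 in Npas4l-KO libraries against 1 and 0 in WT libraries. notchl, a Notch-like gene outside the lists and chosen after its values were seen, stood at 6 and 53 in Npas4l-KO libraries against 0 and 3 in WT libraries. Npas4l-KO replicate 2 also listed the fewest genes at 0, and the part of that feature in these values was not tested.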
